A study of Mus musculus with 6 samples.

Results

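Regulatory T cells (Treg cells) are the CD4+ T cells that express the transcription factor Foxp3 and hold immune responses in check. They are recognised by a signature of genes that they express more highly than conventional T cells. The results below concern 10 genes of that signature, named by symbol, out of 24453 symbols in the expression table: Nrp1, Gpr83, Izumo1r and Cd83, whose products sit at the cell surface, Penk, Ecm1 and Fgl2, whose products are secreted, and Capg, Swap70 and Plagl1, which act inside the cell. The working label of the set, surface and secreted genes, therefore holds for 7 of the 10. All 10 were found, each represented by its transcript with the highest mean level over the 6 libraries.

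RNA was sequenced from CD4+Foxp3+ cells sorted from healthy female mice of the C57BL/6 strain, in 3 libraries labelled miR-27 Tg and 3 labelled WT. The series describes the miR-27 Tg mice as overexpressing miR-27a in Treg cells alone, and its title gives Foxp3cre het for the series as a whole. Foxp3 is X-linked, so in a heterozygous female only part of the Treg cells use the chromosome that carries the Cre allele. Whether the sort separated those cells, what drives the transgene, the tissue of origin and the age of the mice are not given in the sources used here. The genotype label of the WT group reads WT Tg. No label ties a library to a single mouse, so the spread between replicates may be technical. The Mir27a precursor row, which checks the labels, had 8919, 7448 and 7898 RPKM in miR-27 Tg and 24.9, 38.4 and 24.7 in WT. Levels are RPKM, reads per kilobase of exon and, in this table, per 10000000 counted reads. Counted reads numbered 34400000 to 38100000 in miR-27 Tg and 37700000 to 42100000 in WT. Each gene of the set had between 167 and 16629 reads in every library.

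As background, the surface members receive signals from other cells. Nrp1 is a co-receptor for class 3 semaphorins and vascular endothelial growth factors and marks thymus-derived Treg cells in mice, Gpr83 is a G protein-coupled receptor, Izumo1r is a folate receptor relative, and Cd83 is an immunoglobulin-family protein that protects MHC class II and Cd86 from ubiquitin ligases. Among the secreted members, Penk encodes the precursor of the enkephalin opioid peptides, Ecm1 an extracellular matrix glycoprotein, and Fgl2 a fibrinogen-like suppressor molecule. A microRNA such as miR-27 can lower messenger RNAs whose 3′ UTRs pair with its seed.

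The sequences of the overexpressed microRNA and of the single seed match found in the 3′ UTRs of the 10 genes are shown first. The search covered annotated 3′ UTRs only, so it does not tell which transcripts could pair with the seed elsewhere. The mature sequences are from RefSeq (GRCm38.p6), on chromosome 8 from 84208727 to 84208747 for miR-27a-3p and on chromosome 13 from 63300760 to 63300780 for miR-27b-3p, both on the plus strand. Capitals mark the seed, bases 2 to 8, which both share.
mmu-miR-27a-3p: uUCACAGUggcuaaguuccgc
mmu-miR-27b-3p: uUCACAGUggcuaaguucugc

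The match to that seed, ACTGTGA on the sense strand, was searched in the GENCODE M21 transcript that corresponds to each gene's row. Plagl1 held 1 match, at position 831 of a 3′ UTR of 2590 bases. The 30 bases around it are printed, from mm10 chromosome 10, plus strand, 13129920 to 13129949, with the match in capitals, which is not followed by an A.
Plagl1 site: aaaagtgttttgtggACTGTGAtactcatt
The other 9 genes held 0 matches to bases 2 to 8, and 0 of the 10 held a match to bases 2 to 7 followed by A. The annotated 3′ UTRs of those 9 genes ranged from 93 bases for Ecm1 to 2414 for Fgl2. That of Nrp1 had 549 bases in a transcript of 3597, against 5901 bases in the row of the expression table, so part of its exonic sequence was not searched. The same holds for Gpr83, with 2937 exonic bases in the transcript searched, against 3455 in its row. Of 12015 genes tested with a searched 3′ UTR, 14.9% held a match.

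In miR-27 Tg libraries, 7 of the 10 genes had a lower mean than in WT and 3 a higher one. For 9 of them the miR-27 Tg and WT libraries did not overlap: Nrp1, Izumo1r, Cd83, Penk, Fgl2, Capg and Plagl1 lay lower in every miR-27 Tg library, and Gpr83 and Ecm1 lay higher. Among all 13621 genes tested, 18.5% had groups that did not overlap, 11.6% lower and 6.84% higher in miR-27 Tg. Of the 10 genes, 0 passed the test, limma on log2(RPKM + 1) with Benjamini-Hochberg adjustment over all genes and a threshold of 0.05, which 1.03% of all genes passed, 0.653% lower and 0.374% higher in miR-27 Tg. At an unadjusted p under 0.05 by limma there were 9, of which 7 lay lower and 2 higher, against 13.0% of all genes, 8.43% lower and 4.59% higher. The median log2 fold change, miR-27 Tg over WT, was -0.34 over the 10 genes and -0.013 over all genes tested, and the median size regardless of sign was 0.56, against 0.13. The 10 genes were chosen with earlier results of these data known, so their contrast with all genes is not a test of the set.

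**Figure D1:**
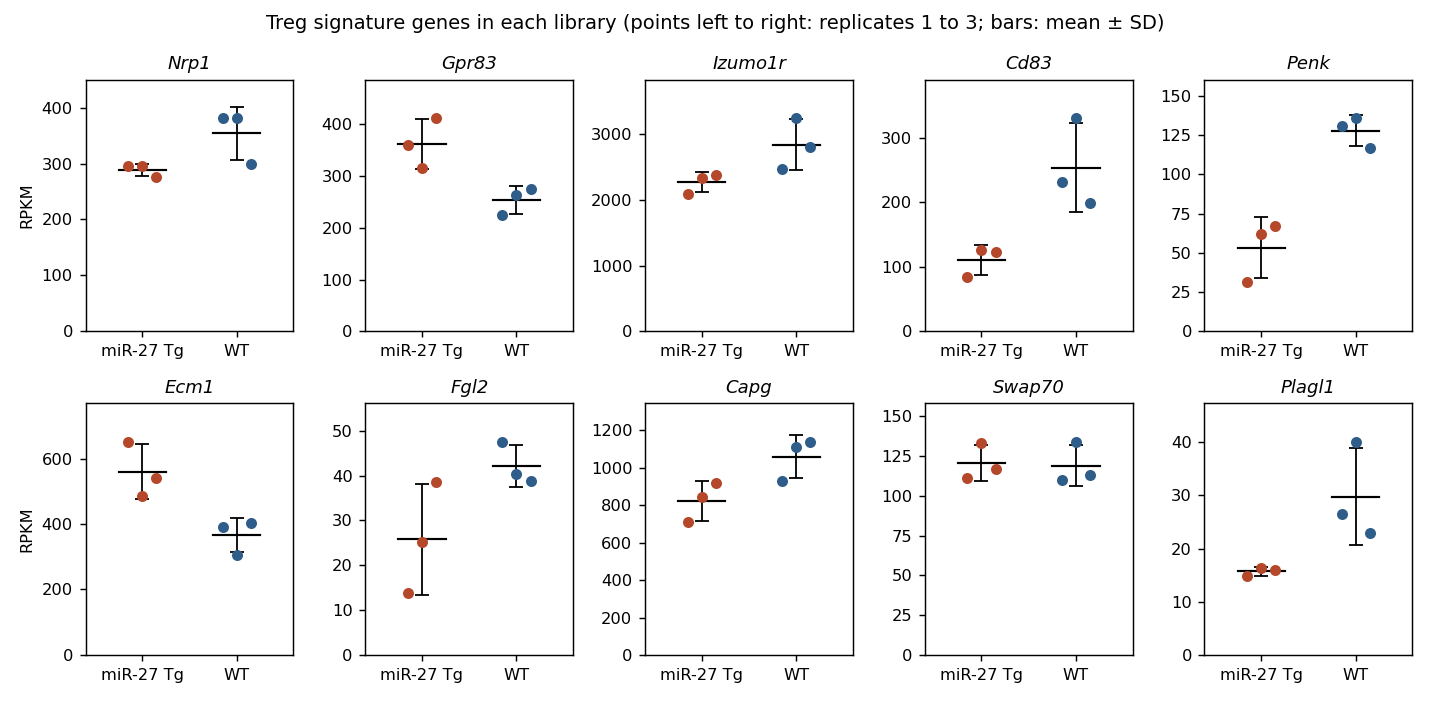
RPKM of each of the 10 genes (vertical axes, each from 0) in the 3 miR-27 Tg libraries (left) and the 3 WT libraries (right), with replicates 1 to 3 from left to right and black bars for mean ± SD. The groups are apart for all genes but Swap70, by a wide margin for Penk and Cd83 and by a narrow one for Fgl2, Capg and Nrp1.

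Cd83 was the surface gene with the largest difference. It had 84.0, 125 and 122 RPKM in miR-27 Tg replicates 1 to 3, against 231, 330.4 and 199 RPKM in WT replicates 1 to 3. Every miR-27 Tg library lay well below every WT library, and the highest of them stood at 63.0% of the lowest WT library. The means were 110.5 ± 23.0 RPKM in miR-27 Tg and 254 ± 68.6 in WT (SD, n = 3 each). The log2 fold change was -1.18 (SE 0.22, 95% confidence interval -1.68 to -0.68), with adjusted p = 0.0533 by limma. Cd83 is best known as a marker of mature dendritic cells, and its row on mm10 chromosome 13 (43785112 to 43803133, plus strand) shares no annotated exonic base with another gene.

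Of 5 genes tied to Cd83, all tested, 0 passed, while 2, Cd86 and Cd80, were under 0.05 before adjustment. Cd86, a costimulatory ligand that Cd83 stabilises in antigen-presenting cells, had 49.4, 56.1 and 59.9 RPKM in miR-27 Tg and 73.1, 89.7 and 76.7 in WT. The groups did not overlap (log2 fold change -0.52, adjusted p = 0.113). Its relative Cd80 was at 10.55, 10.63 and 7.20 RPKM in miR-27 Tg and 4.21, 4.96 and 5.80 in WT, the opposite order, again without overlap (0.79, adjusted p = 0.158). The ubiquitin ligase gene March1, whose product Cd83 opposes, averaged 5.82 RPKM in miR-27 Tg and 2.70 in WT, with overlapping groups. It had 2.47, 9.81 and 5.16 RPKM in miR-27 Tg replicates 1 to 3 and 1.81, 2.78 and 3.51 in WT.

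Gpr83 and Izumo1r are neighbours on mm10 chromosome 9, yet their differences had opposite signs. Gpr83 (14860210 to 14870789, plus strand) had 361, 315 and 412 RPKM in miR-27 Tg, against 224, 264 and 275 in WT. The lowest miR-27 Tg library was at 114.6% of the highest WT library. The means were 363 ± 48.7 and 254 ± 26.8 RPKM (SD, n = 3 each) in miR-27 Tg and in WT, a log2 fold change of 0.51 (SE 0.13, adjusted p = 0.126 by limma). The gene Pcsk1n, which encodes the precursor of a peptide reported as a Gpr83 ligand in mice, was listed at 0 in all libraries.

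Izumo1r (14900023 to 14903951, minus strand) lies 29.2 kilobases beyond the end of Gpr83. It was the most abundant of the 10 genes, with 2096, 2333 and 2377 RPKM in miR-27 Tg and 2475, 3244 and 2799 in WT. The groups were close, the highest miR-27 Tg library reaching 96.0% of the lowest WT library. This gave a log2 fold change of -0.32 (SE 0.12, 95% confidence interval -0.60 to -0.032), with adjusted p = 0.321 by limma. A second annotated transcript, which spans 14885814 to 14903951, followed the same order, with 1153, 1312 and 1354 RPKM in miR-27 Tg and 1397, 1886 and 1523 in WT. This longer transcript comes within 15025 bases of the end of Gpr83, with 0 annotated genes in that interval.

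The egg uses the Izumo1r protein to bind Izumo1 on sperm. Izumo1 was barely present, with 13 to 16 reads in each miR-27 Tg library and 1 to 7 in each WT library, and the groups did not overlap (log2 fold change 1.15, adjusted p = 0.136 by limma). Of 7 folate receptor and folate metabolism genes 6 were tested and 0 passed, with 1, Izumo1, at an unadjusted p under 0.05. Slc19a1, the reduced folate carrier, averaged 83.2 RPKM in miR-27 Tg and 89.8 in WT. The receptor gene Folr1 was listed at 0 in every library, and Folr2, which shares 74.6% of its exonic bases with a gene on the other strand, averaged 2.66 and 5.07 RPKM in miR-27 Tg and in WT.

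Nrp1 had 295, 295 and 276 RPKM in miR-27 Tg, against 381, 381 and 299 in WT. The miR-27 Tg libraries lay close together, and the nearest of them was at 98.6% of WT replicate 3, the lowest of its group. Its log2 fold change was -0.28 (SE 0.11, 95% confidence interval -0.54 to -0.025, adjusted p = 0.331 by limma). Among 20 ligands and co-receptors listed for Nrp1, 11 were tested and 0 passed, with 1 at an unadjusted p under 0.05. That gene, Sema4a, a semaphorin that binds Nrp1 on mouse Treg cells, averaged 243 RPKM in miR-27 Tg and 195 in WT and had groups that did not overlap (0.31, adjusted p = 0.193).

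The plexins that signal with Nrp1 were present at low levels: Plxnd1 averaged 32.9 RPKM in miR-27 Tg and 28.3 in WT, and Plxna3 averaged 19.2 in miR-27 Tg and 23.6 in WT. The paralog Nrp2 averaged 3.92 and 2.61 RPKM in miR-27 Tg and in WT. Of the class 3 semaphorin genes only Sema3d reached a mean of 1 RPKM, the level from which genes were tested. Kdr, a receptor for vascular endothelial growth factor, averaged 7.82 RPKM in miR-27 Tg and 2.24 in WT, with overlapping groups (1.24, adjusted p = 0.551). Its libraries were uneven, with 1.65, 16.4 and 5.41 RPKM in miR-27 Tg replicates 1 to 3 and 0.307, 2.39 and 4.02 in WT.

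With all libraries, Penk had the largest log2 fold change of the 10 in size. It had 31.1, 62.1 and 66.8 RPKM in miR-27 Tg replicates 1 to 3, against 131, 136 and 117 in WT. Replicate 1 of miR-27 Tg stood at 24.4% of the WT mean and the other two at 48.6% and 52.3%, whereas the WT libraries differed little among themselves. The means were 53.3 ± 19.4 RPKM in miR-27 Tg and 128 ± 9.85 in WT (SD, n = 3 each). The log2 fold change was -1.32 (SE 0.26, 95% confidence interval -1.92 to -0.71), with adjusted p = 0.0699 by limma. Without miR-27 Tg replicate 1 the log2 fold change was smaller, -0.98, but the spread was too (SE 0.12), and adjusted p was 0.0317. In that fit the value of Cd83 was of much the same size, at -0.9955 (adjusted p = 0.0974). The Penk row (mm10 chromosome 4, 4133536 to 4138445, minus strand) shares 10.8% of its exonic bases with the opposite-strand gene A830012C17Rik. Reads were counted on both strands, so those bases cannot be assigned.

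Enkephalins are cut out of the Penk precursor and trimmed by carboxypeptidase E, the product of Cpe. Cpe was the 1 gene of 12 listed for opioid peptides that passed, among 5 tested, and it fell. It had 5.67, 9.76 and 8.09 RPKM in miR-27 Tg, against 18.7, 23.2 and 23.8 in WT, from 45 to 70 reads per miR-27 Tg library and 164 to 190 per WT library. Its log2 fold change was -1.39 (SE 0.21, adjusted p = 0.0326 by limma). The call held without miR-27 Tg replicate 2 and ended without any other single library, with adjusted p of 0.061 without miR-27 Tg replicate 1, 0.117 without its replicate 3, and 0.0794, 0.0841 and 0.122 without WT replicates 1 to 3. It also ended with no filter on low values (0.07445).

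Oprm1, the mu opioid receptor, had 17.4, 16.6 and 18.99 RPKM in miR-27 Tg and 19.7, 22.2 and 18.5 in WT, with overlapping groups (log2 fold change -0.18, adjusted p = 0.679 by limma). It shares 7.1% of its exonic bases with the opposite-strand gene Ipcef1. The delta receptor gene Oprd1 was listed at 0 in miR-27 Tg and averaged 0.103 RPKM in WT. Pomc, another opioid precursor gene, averaged 4.44 RPKM in miR-27 Tg and 4.98 in WT, with overlapping groups. A further precursor gene, Pnoc, averaged 0.222 RPKM in miR-27 Tg and 0.121 in WT. Oprk1, the kappa receptor gene, the precursor gene Pdyn and the processing protease gene Pcsk2 were listed at 0 in all libraries. Pcsk1, the other such protease gene, had 17 to 19 reads per miR-27 Tg library and 12 to 27 per WT library.

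**Figure D2:**
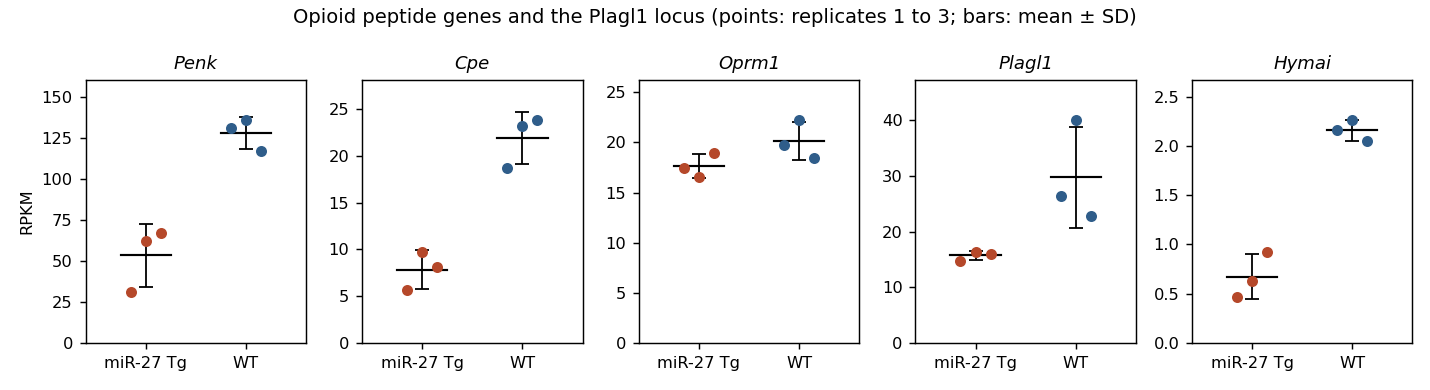
RPKM (vertical axes, each from 0) of the enkephalin precursor gene Penk, the peptide-trimming enzyme gene Cpe, the receptor gene Oprm1, the transcription factor gene Plagl1 and the non-coding RNA gene Hymai in 3 miR-27 Tg libraries (left) and 3 WT libraries (right), with mean ± SD in black. The groups are apart for all but Oprm1, and the Cpe libraries lie at 5.67 to 9.76 RPKM in miR-27 Tg and at 18.7 to 23.8 RPKM in WT.

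Ecm1 was the secreted gene that lay higher in miR-27 Tg. It had 651, 486 and 539.8 RPKM in miR-27 Tg, against 389.7, 306 and 404 in WT, and the lowest miR-27 Tg library was at 120.3% of the highest WT library. The means were 559 ± 84.2 and 367 ± 52.8 RPKM (SD, n = 3 each) in miR-27 Tg and in WT. The log2 fold change was 0.61 (SE 0.14, 95% confidence interval 0.27 to 0.94), with adjusted p = 0.114 by limma. Ecm1 protein has been tied to the exit of mouse T helper cells from lymph nodes, and its row on mm10 chromosome 3 (95734148 to 95739569, minus strand) shares no exonic base with another gene.

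Fgl2 was the most uneven of the 10 genes in miR-27 Tg. It had 13.7, 25.3 and 38.5 RPKM in miR-27 Tg replicates 1 to 3, against 47.55, 40.4 and 38.7 in WT. Replicate 3 of miR-27 Tg was at 99.4% of the lowest WT library, and replicate 1 at 32.5% of the WT mean. Its log2 fold change of -0.79 (SE 0.32, adjusted p = 0.337 by limma) was -0.42 without miR-27 Tg replicate 1. The inhibitory and activating Fc receptors that Fgl2 binds, Fcgr2b and Fcgr3, averaged 5.50 and 6.99 RPKM in miR-27 Tg and 2.25 and 3.27 in WT. Neither passed by limma (adjusted p = 0.389 and 0.238, with Fcgr3 at an unadjusted p under 0.05), and both are genes of myeloid cells, whose markers are given below. The fibrinogen chain genes Fga, Fgb and Fgg were listed at 0 in every library.

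Of the intracellular genes, Plagl1 differed most. This imprinted zinc-finger factor had 14.8, 16.4 and 16.03 RPKM in miR-27 Tg, against 26.4, 40.1 and 22.8 in WT. The miR-27 Tg libraries were nearly equal (coefficient of variation 5.38%, against 30.5% in WT), and the highest of them was at 71.9% of the lowest WT library. The log2 fold change was -0.84 (SE 0.21, 95% confidence interval -1.32 to -0.36), with adjusted p = 0.130 by limma. Plagl1 is also the gene of the set whose 3′ UTR holds the seed match printed above.

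Hymai, chosen after its values were seen, is a non-coding RNA gene on the same strand within the Plagl1 locus (mm10 chromosome 10, 13090845 to 13095900). It lay lower in miR-27 Tg as well, with 0.468, 0.632 and 0.919 RPKM in miR-27 Tg and 2.16, 2.26 and 2.05 in WT, from 9 to 16 and from 39 to 46 reads per library in miR-27 Tg and in WT. Its log2 fold change was -0.92 (adjusted p = 0.154 by limma). Its row lies inside that of Plagl1, so reads of the primary Plagl1 transcript and of Hymai were not told apart. The paralog Plagl2 averaged 145 RPKM in miR-27 Tg and 144 in WT. Of 14 genes listed for the Plag family and for imprinted loci 6 were tested and 0 passed, with 1, Hymai, at an unadjusted p under 0.05, and Igf2, H19, Dlk1, Meg3, Peg3 and Grb10 had mean levels under 1 RPKM in both groups.

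Capg, which caps the fast-growing ends of actin filaments, was the second most abundant of the 10. It had 708, 846 and 919 RPKM in miR-27 Tg, against 928, 1110.4 and 1139 in WT. The groups met almost end to end, with the highest miR-27 Tg library at 99.1% of the lowest WT library. Its log2 fold change was -0.36 (SE 0.13, adjusted p = 0.267 by limma). Among 9 genes of the gelsolin family and of capping protein, all tested, 0 passed and 2 had an unadjusted p under 0.05. The nearest in family, Gsn, averaged 94.1 RPKM in miR-27 Tg and 70.0 in WT (0.41, adjusted p = 0.287). Its relative Scin had the opposite order, 2.86 RPKM in miR-27 Tg and 4.93 in WT (-0.61, adjusted p = 0.336), also without overlap, and the unrelated capping protein subunit Capzb averaged 929 and 1011 RPKM in miR-27 Tg and in WT.

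Swap70, a phosphoinositide-binding protein that works with Rac at the actin cytoskeleton, was the gene of the set whose groups overlapped. It had 111, 133 and 117 RPKM in miR-27 Tg and 110.2, 134 and 113 in WT. The log2 fold change was 0.018, with a 95% confidence interval of -0.25 to 0.28 (adjusted p = 0.972 by limma). Its sign turned in 3 of the 6 fits that left out a library. The opposite-strand gene Gm45515 shares 9.8% of its exonic bases. Its paralog Def6 averaged 560.5 RPKM in miR-27 Tg and 505 in WT, and of 5 partners 0 passed and 0 had an unadjusted p under 0.05.

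**Figure D3:**
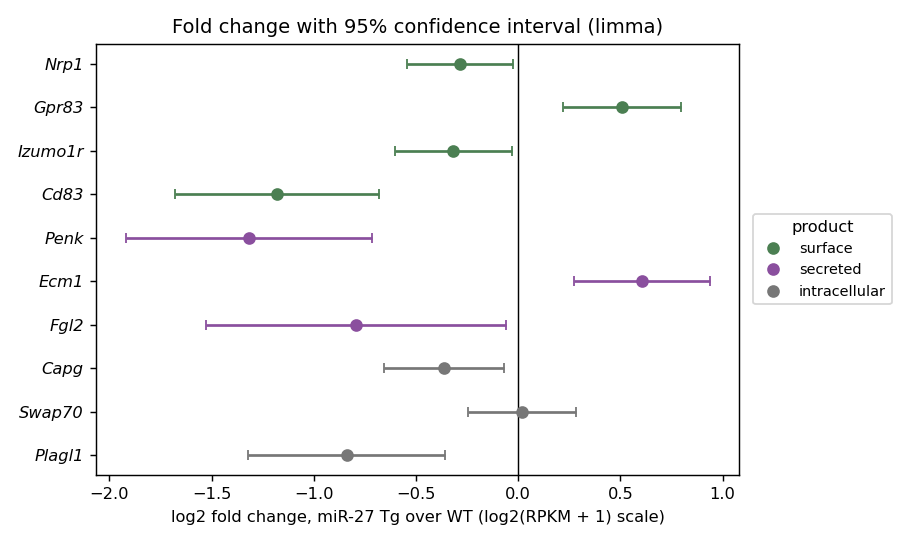
Log2 fold change of each gene, miR-27 Tg over WT, on the log2(RPKM + 1) scale (horizontal axis), with the 95% confidence interval by limma before any adjustment for the number of genes, coloured by where the product acts. Penk and Cd83 lie farthest below 0, at -1.32 and -1.18, Ecm1 and Gpr83 above 0, and the interval of Swap70 spans 0.

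The order of levels differed between the groups. In miR-27 Tg, from high to low mean RPKM, it ran Izumo1r, Capg, Ecm1, Gpr83, Nrp1, Swap70, Cd83, Penk, Fgl2 and Plagl1. In WT it ran Izumo1r, Capg, Ecm1, Nrp1, Gpr83, Cd83, Penk, Swap70, Fgl2 and Plagl1. Neighbours whose libraries overlapped were Swap70 with Cd83, Penk with Fgl2 and Fgl2 with Plagl1 in miR-27 Tg, and Ecm1 with Nrp1, Gpr83 with Cd83, Penk with Swap70 and Fgl2 with Plagl1 in WT. By its mean, Swap70 stood above Cd83 in miR-27 Tg, where their libraries overlapped, and below it in WT, where they did not.

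Single libraries carried some of the spread. Replicate 1 of miR-27 Tg was the lowest of its group for 7 of the 10 genes and the highest for Ecm1. Replicate 2 of WT was the highest of its group for 5 genes, Cd83, Izumo1r, Penk, Plagl1 and Swap70, and the lowest for Ecm1. The ratio of highest to lowest library within a group reached 2.80 for Fgl2 and 2.15 for Penk in miR-27 Tg, and 1.76 for Plagl1 and 1.66 for Cd83 in WT.

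**Figure D4:**
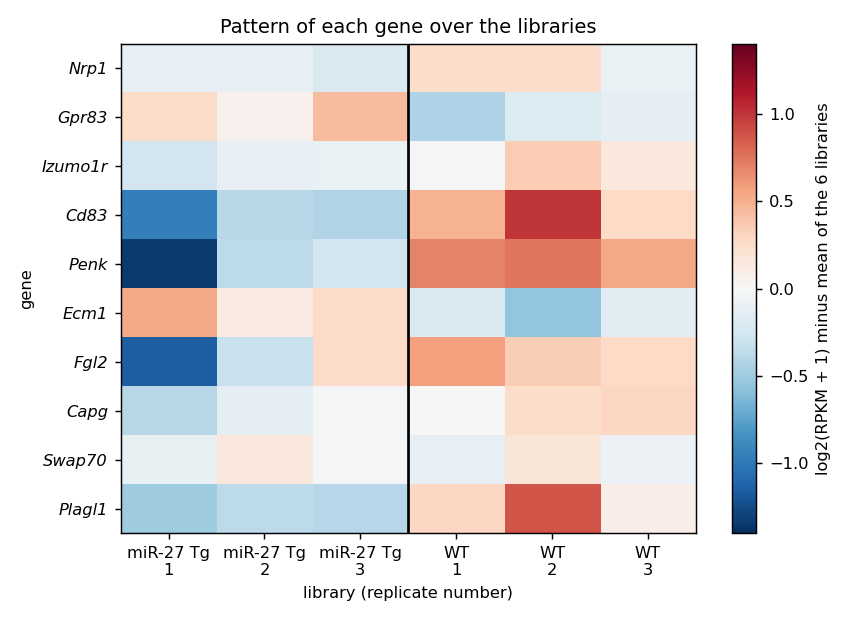
Level of each gene in each library as log2(RPKM + 1) minus its mean over the 6 libraries (colour, red above and blue below the mean), with miR-27 Tg replicates 1 to 3 left of the line and WT replicates 1 to 3 right of it. Penk, Cd83 and Fgl2 are lowest in miR-27 Tg replicate 1, and Cd83 and Plagl1 are highest in WT replicate 2.

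Genes with the most similar pattern were sought among 10702 others with a mean of at least 10 RPKM, by the root-mean-square difference of centred log2 levels over the 6 libraries. Penk lay nearest to Serpina3g, a serine protease inhibitor gene, at 0.0978, which had 70.2, 143 and 160.3 RPKM in miR-27 Tg and 255, 324 and 267 in WT. The leukocyte receptor genes Lilrb4a (0.105) and Lilr4b (0.138) followed, whose similar sequences make their values uncertain. Cd83 lay nearest to Prelid2 (0.116), then to Tnfrsf8, which encodes the activation marker CD30 (0.140). Tnfrsf8 had 9.26, 12.8 and 13.6 RPKM in miR-27 Tg and 24.8, 30.6 and 25.01 in WT.

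For Plagl1 the nearest was Serpinc1 (0.0857), then Abcb1a, a drug efflux pump gene (0.105), and for Gpr83 it was Unc5cl (0.0643). Ecm1 lay nearest to Pik3r5, a regulatory subunit gene of phosphoinositide 3-kinase (0.0683), with 374, 288 and 304 RPKM in miR-27 Tg and 241, 198 and 247 in WT. The nearest to Nrp1 was Pgap1 (0.0391), to Izumo1r Arel1 (0.0185), to Capg Ech1 (0.035), to Swap70 Fbxo17 (0.0272) and to Fgl2 1810011H11Rik (0.179). These distances describe 6 libraries, and genes with small differences between libraries have near neighbours in number.

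Among 32 other genes of the Treg signature, all tested, the median log2 fold change was -0.53. By limma 6 of them fell and 0 rose in miR-27 Tg, against 0.653% and 0.374% of all genes tested. This list too was chosen with earlier results of these data known, so the contrast is not a test of the signature. Those that fell were Itgae, Tigit, Ccr8, Areg, Itgb8 and Gzmb, with log2 fold changes of -2.05, -1.39, -1.23, -1.07, -1.09 and -2.02. Of the others, Tnfrsf1b, a tumour necrosis factor receptor gene, averaged 274 RPKM in miR-27 Tg and 430.3 in WT (adjusted p = 0.0683), and Ctla4, an inhibitory receptor gene, averaged 2335 and 3436 RPKM in miR-27 Tg and in WT (adjusted p = 0.0868). Il10, an anti-inflammatory cytokine gene, had 35.2, 55.9 and 84.9 RPKM in miR-27 Tg and 225, 120.2 and 268 in WT without passing (adjusted p = 0.0759). Without single libraries 1 to 6 of the list passed, and it was 1, Itgae, without miR-27 Tg replicate 3, without WT replicate 1 and without WT replicate 3. The Itgae call held in all 6 fits that left out a library. Those of Tigit and Ccr8 held in 3 each, Areg in 2, Gzmb in 1 and Itgb8 in 0. With no filter on low values 2 of the list passed, against 9 with the replicate block. Without that filter the calls of Ccr8, Areg, Itgb8 and Gzmb ended (adjusted p = 0.052, 0.0558, 0.0719 and 0.0802 by limma). The Gzmb call also ended without the trend in the model (0.072). Foxp3 itself averaged 836 RPKM in miR-27 Tg and 764 in WT, and Il2ra, the high-affinity interleukin 2 receptor chain, averaged 1003 and 939 RPKM in miR-27 Tg and in WT. Foxp3 shares 20.4% of its exonic bases with other genes, Ccdc22 and Gm36995 on the opposite strand and Flicr on the same strand. Fewer cells that express a gene and less of its RNA per cell cannot be told apart in these bulk libraries.

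Several of the 10 genes are also expressed outside Treg cells, Cd83 and Nrp1 by dendritic cells and Fgl2 and Capg by macrophages. All 8 matched of 10 T and Treg cell markers were present, summing to 15010 to 16730 RPKM in miR-27 Tg and 16620 to 17790 in WT. Of 18 monocyte, macrophage and neutrophil markers 16 had a higher mean in miR-27 Tg, and 1, Itgam, rose (adjusted p = 0.0118 by limma), a gene that shares 73.7% of its exonic bases with the annotated gene Gm49368. That call ended without miR-27 Tg replicate 3 (0.0674), without WT replicate 1 (0.0511) and without WT replicate 3 (0.0508). Their summed level was 1636 to 3006 RPKM in miR-27 Tg and 1750 to 2121 in WT, with Ctss and Lyz2 making up 77.3% of it and Cd14 and Ly6g at 0 in some libraries. Of 13 dendritic cell markers 10 had a higher mean in miR-27 Tg, with sums of 1943 to 2820 RPKM and, in WT, 1523 to 2024, of which Ccr7 and Bst2, also T cell genes, were 86.4%. Behind these sums single libraries stood apart: Siglech, named after its values were seen, had 27.4, 330.5 and 153 RPKM in miR-27 Tg and 14.4, 64.4 and 119 in WT. The dendritic markers Clec9a, Cd209a and Flt3 and the macrophage marker Mpeg1 were likewise lowest in replicate 1 of each group and highest of all in miR-27 Tg replicate 2. Other markers of these lists did not share this order. Lyz2 and Csf1r were lowest in WT replicate 2, Xcr1 was lowest in miR-27 Tg replicate 2, and Ccr7 was highest in miR-27 Tg replicate 1.

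Summed levels of the myeloid and of the dendritic markers overlapped between the groups. Their bearing on Cd83, Nrp1, Fgl2 and Capg, which lay lower in miR-27 Tg, was not tested. B cell markers (12 genes) summed to 121 to 218 RPKM in miR-27 Tg and 156 to 182 in WT. CD8 T and NK cell markers (12 genes) summed to 244 to 392 in miR-27 Tg and 324 to 378 in WT, with Ncr1 and Klra8 at 0 in some libraries. Of these 12, 7 had a higher mean in miR-27 Tg, and 2, Xcl1 and Nkg7, fell (adjusted p = 0.0238 and 0.0257 by limma). The Xcl1 call ended without miR-27 Tg replicate 3 and without WT replicates 1 or 3 (0.0766, 0.0794 and 0.0818) and with no filter on low values (0.0558), and the Nkg7 call held in 1 of 6 fits that left out a library, the one without miR-27 Tg replicate 2, with adjusted p up to 0.0988 in the others. The 7 erythroid markers summed to 21.9 to 63.3 RPKM in miR-27 Tg and 24.8 to 83.6 in WT. The part of these cells in the differences of the 10 genes was not tested.

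Genes induced within minutes to hours of T cell activation or cell handling were set beside Cd83, which is itself inducible. Of 22 such genes 0 passed by limma, 16 had a fold change below 0, 8 had an unadjusted p under 0.05 (7 lower and 1 higher in miR-27 Tg), and the list's median was -0.20. The heat-shock gene Hspa1a had 12.4, 15.8 and 12.7 RPKM in miR-27 Tg, against 259, 27.7 and 95.4 in WT, and its neighbour and near copy Hspa1b had 40.3, 46.2 and 30.9 RPKM in miR-27 Tg, against 598, 76.2 and 234 in WT. Both lay lower in every miR-27 Tg library, with the WT libraries far apart (log2 fold changes of -2.62 and -2.48, adjusted p = 0.134 and 0.131), and reads of the 2 genes may not be separable. Nr4a2, an orphan nuclear receptor gene, averaged 54.8 RPKM in miR-27 Tg and 103 in WT (adjusted p = 0.163). Of the 22, 3 passed without WT replicate 2, 2 with array weights and 2 with the replicate block, all lower in miR-27 Tg. The summed level of the 22 was 26040, 22210 and 24240 RPKM in miR-27 Tg replicates 1 to 3 and 30810, 19640 and 30020 in WT replicates 1 to 3. Junb and Tnfaip3 made up 41.4% of it. The part of activation or handling in the differences of the 10 genes was not tested.

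**Figure D5:**
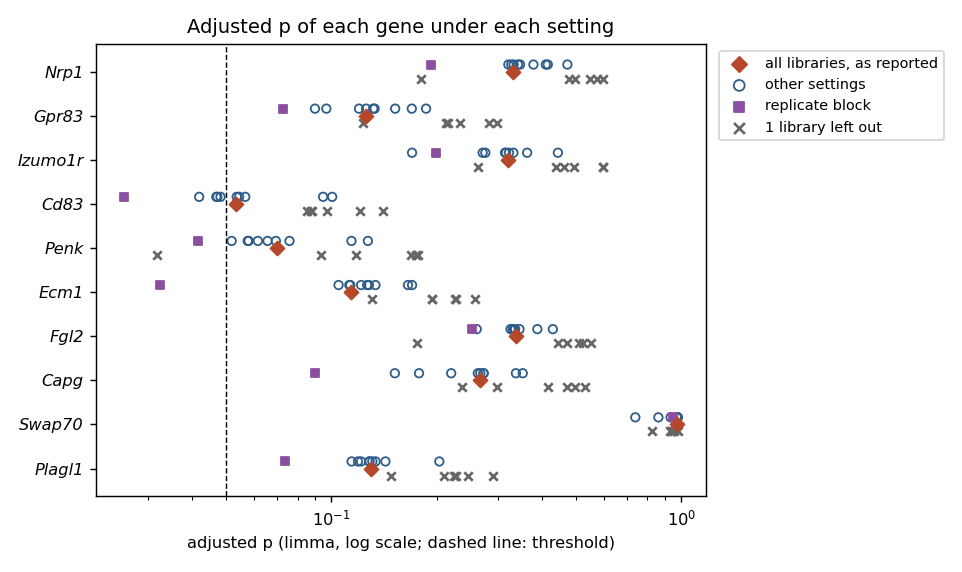
Adjusted p by limma of each gene (horizontal axis, log scale, dashed line at 0.05) as reported, under 9 other settings, with a replicate block and with each of the 6 libraries left out. Cd83 and Penk lie on either side of the line, from 0.0256 to 0.141 and from 0.0317 to 0.177, Ecm1 crosses it with the replicate block (0.0324), and the other 7 genes stay above it in every fit shown.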

How the data were processed

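Total RNA from sorted CD4+Foxp3+ cells was made into TruSeq libraries, per the labels' protocols. The authors deposited 1 table of RPKM values for all 6 libraries, in which HOMER counted reads over exons of mm10 RefSeq transcripts on both strands, scaled to 10000000 reads per library, per the file headers. Per the submitters' processing notes, tools were STAR 2.2.0c and HOMER and builds mm10 and GRCm38. Transcripts of 1 gene with nearly the same exons had nearly the same reads, so shared reads appear in each. Low values (3029 to 3238 per library, transcripts of 200 to 4000 bases) were whole multiples of 1 read within 0.1 of a read in 100% of cases, which gave the depth and read numbers; intervals from reads would cover counting error only, and no count model was used.

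Of 34711 transcripts, 1 per symbol was kept. The 13621 genes averaging 1 RPKM or more entered the test as log2(RPKM + 1), which understates changes of low genes, with limma 3.58.1 in R 4.3.3 (moderated linear model with trend, two-sided), checked on simulated data. Genes named are the 10 members, listed genes that passed, up to 3 more per list by p among those averaging 5 RPKM or more, and receptors, ligands, enzymes and paralogs of members; Foxp3, Il2ra and single cell type markers were named besides. Members and lists were chosen with earlier results of these data known. Trac and Trbc1 matched no symbol. The 16 alternatives covered filters, pseudocounts, scaling, weights, a replicate block and left-out libraries.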

Additional observations from a re-analysis of the deposited data

How the results depend on the processing

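Across 16 alternatives and the 10 genes, 149 of 160 fits kept both the sign and the side of the threshold, 8 gained a call, 0 lost one and 3 turned the sign. Those 3 were of Swap70 with single libraries left out, where its log2 fold change ran from -0.056 to 0.105. Against 0 of the 10 genes called, 1 was called with a minimum mean RPKM of 5, 1 with centring on library medians, 1 with quantile normalization and 1 with array weights, each time Cd83, with adjusted p of 0.0469, 0.0419, 0.0472 and 0.0482. With the replicate number as a block, which the labels do not give as a pairing, 3 were called, Cd83, Penk and Ecm1 (adjusted p of 0.0256, 0.0415 and 0.0324), and the cause was not tested. Leaving out single libraries gave 0 to 1, the 1 being Penk. Over all genes, 140 were called, against 47 with no filter on low values, where 18024 genes were tested, 225 with array weights and 276 with the replicate block, and 5 to 65 with single libraries left out, where fewer samples entered. Deviations of same-numbered libraries correlated over genes at 0.368, 0.0971 and 0.0368, and not every library correlated best with its own number. Centring on library medians moved the median of all genes to 0.023, quantile normalization moved it to 0.0053, and neither turned a sign among the 10. Depth limits partner genes such as Izumo1, with 1 to 16 reads a library, more than the 10 genes, whose fewest reads in a library were 167.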

Other observations

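Genes that Treg cells express less than conventional T cells are the counterpart of the signature. Of 16 listed, all tested, 0 passed by limma, 12 had a fold change above 0, and 4 had an unadjusted p under 0.05, each higher in miR-27 Tg. Arhgap29, a GTPase-activating protein gene, had 11.9, 9.12 and 12.0 RPKM in miR-27 Tg and 6.95, 6.42 and 6.18 in WT, without overlap (log2 fold change 0.67, adjusted p = 0.155). Satb1, a chromatin organiser that Foxp3 represses, averaged 571 RPKM in miR-27 Tg and 409 in WT without overlap (log2 fold change 0.50, adjusted p = 0.337). Actn1, an actin cross-linker gene, averaged 681 RPKM in miR-27 Tg and 517 in WT, with overlapping groups (0.39, adjusted p = 0.331).

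Where a gene of the set had several annotated transcripts, as 5 of the 10 did, each transcript's libraries kept the same order between groups as the one reported. Of Capg's 4 transcripts, the lowest in level had 629, 751 and 816 RPKM in miR-27 Tg and 825, 987 and 1016 in WT.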
